A study of Homo sapiens with 4 samples.

Results

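The genes described here are 10 components of the TGF-beta pathway, of 60558 genes in each library: the ligands TGFB1, TGFB2, TGFB3 and INHBA, the receptors TGFBR1 and TGFBR2, and the signal transducers SMAD2, SMAD3, SMAD4 and SMAD7. They were chosen by name, as the core ligands, receptors and SMADs of the pathway, with earlier results of these data known. RNA was sequenced from A549 and HCC827, established human lung adenocarcinoma lines. Each line carried either myr-AKT1, an AKT1 with a myristoylation signal that holds the kinase at the membrane and keeps it active, or the vector without it. The comparison asks which transcripts differ when AKT1 is constitutively active. Each of the 4 combinations of line and construct was 1 library from cultured cells, so no difference within a line has a replicate check, and construct and culture cannot be told apart.

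TGF-beta ligands are secreted in a latent form, held by a propeptide and by latent TGF-beta binding proteins, and are released by integrins or proteases. The active dimer binds TGFBR2, which recruits and phosphorylates TGFBR1. TGFBR1 then phosphorylates SMAD2 and SMAD3, which enter the nucleus with SMAD4 and act on target genes such as those for extracellular matrix, while SMAD7 is induced by the pathway and inhibits TGFBR1. In epithelial cells the pathway is known for growth arrest and, in carcinoma, for epithelial-mesenchymal transition.

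The members lie at these GENCODE positions on GRCh38. The ligand genes are TGFB1 (ENSG00000105329, chr19:41301587-41353922, minus strand), TGFB2 (ENSG00000092969, chr1:218345336-218444619, plus strand), TGFB3 (ENSG00000119699, chr14:75958097-75983011, minus strand) and INHBA (ENSG00000122641, chr7:41667168-41705834, minus strand). The receptor genes are TGFBR1 (ENSG00000106799, chr9:99104038-99154192, plus strand) and TGFBR2 (ENSG00000163513, chr3:30606601-30694142, plus strand). The SMAD genes are SMAD2 (ENSG00000175387, chr18:47808957-47931146, minus strand), SMAD3 (ENSG00000166949, chr15:67063763-67195173, plus strand), SMAD4 (ENSG00000141646, chr18:51028528-51085045, plus strand) and SMAD7 (ENSG00000101665, chr18:48919853-48950965, minus strand).

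Recovered reads ranged from 16322183 to 33530317 per library. AKT1, the gene of the construct, had 6297 normalized counts in A549-myr-AKT1 and 4243 in A549-vector. In HCC827 it had 4805 with myr-AKT1 and 2175 with vector. Reads of the construct and of the cells' own gene were not separated. On the log2 scale AKT1 was higher by 0.57 in A549 and by 1.14 in HCC827. Of all genes tested, 26.5% lay above 0.51 in A549 and 14.1% above 1 in HCC827. The direction is that of the labels, but AKT1 alone does not settle them. A normalized count is a read count divided by the size factor of its library. All 6 epithelial markers had more than 3 reads in every library. Of 4 lung lineage markers, SFTPC had 0 reads in every library and SFTPB had 0 in both A549 libraries. NAPSA had 30 and 48 reads in A549-myr-AKT1 and A549-vector, and 1597 and 4520 in the HCC827 pair. NKX2-1 had 8 and 0 reads in the A549 pair, and 702 and 1993 in the HCC827 pair, where SFTPB had 2 and 42. As these are bulk samples, fewer cells expressing a gene and less RNA per cell cannot be told apart.

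Among the ligands, TGFB2, a TGF-beta isoform, stood highest in A549-myr-AKT1. It had 12129 normalized counts there and 2772 in A549-vector, against 746 with myr-AKT1 and 1066 with vector in HCC827. The myr-AKT1 library was thus the higher of the pair in A549 and the lower in HCC827. The log2 fold change, the log2 ratio of myr-AKT1 to vector, was 2.13 in A549 (95% counting interval, 2.07 to 2.19), a 4.38-fold difference, and -0.51 in HCC827 (-0.66 to -0.37). Such intervals (Clopper-Pearson) reflect the number of reads counted, not the variation between cultures. Of the 18750 genes that averaged at least 10 normalized counts over the A549 pair, 5.22% had a higher log2 fold change than TGFB2. The antisense transcript TGFB2-AS1, which overlaps a TGFB2 exon, had 19 reads in A549-myr-AKT1 and 47 in A549-vector.

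TGFB1, the isoform most widely expressed across tissues, was higher with myr-AKT1 in both lines. It had 1656 normalized counts in A549-myr-AKT1 and 1164 in A549-vector, against 498 with myr-AKT1 and 243 with vector in HCC827. The log2 fold change was 0.51 in A549 (0.40 to 0.62) and 1.03 in HCC827 (0.82 to 1.25), the latter a 2.05-fold difference. Exons of TGFB1 overlap 215 bases of HNRNPUL1 on the opposite strand, a gene that was lower with myr-AKT1 at -0.59 in A549 and -0.53 in HCC827 on the log2 scale. The Methods describe strand-specific sequencing, but whether reads in the shared bases were counted by strand is not given in the sources used here.

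The other two ligands were scarce. TGFB3 had 35.5 normalized counts in A549-myr-AKT1 and 69.0 in A549-vector, from 31 and 79 reads, and 45.3 and 34.2 in the HCC827 pair. Its log2 fold change was -0.96 in A549 (-1.61 to -0.34), and in HCC827 the interval around 0.41 held 0 (-0.27 to 1.08). INHBA, which encodes the subunit of activin A, had 1 read in each A549 library and 2 in each HCC827 library. That is under the limit of 3 reads that a count of 0 allows, so no fold was computed for it.

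The receptors differed from each other. TGFBR1, the type I receptor kinase, had 4834 normalized counts in A549-myr-AKT1 and 2144 in A549-vector, against 686 with myr-AKT1 and 895 with vector in HCC827. As for TGFB2, the myr-AKT1 library was the higher in A549 and the lower in HCC827. The log2 fold change was 1.17 in A549 (1.10 to 1.25), a 2.25-fold difference, and -0.38 in HCC827 (-0.53 to -0.24). TGFBR2, the type II receptor that binds the ligand, had 7132 and 6580 normalized counts in A549-myr-AKT1 and A549-vector, and 2660 and 2570 in the HCC827 pair. Its log2 fold change was 0.12 in A549 (0.07 to 0.16) and 0.05 in HCC827 (-0.03 to 0.13), where it was the closest to 0 of the 9 members with a fold.

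SMAD2 and SMAD3, the receptor-activated SMADs, went opposite ways in each line. SMAD2 had 9848 normalized counts in A549-myr-AKT1 and 7113 in A549-vector, against 2040 with myr-AKT1 and 2757 with vector in HCC827. Its log2 fold change was 0.47 in A549 (0.43 to 0.51) and -0.43 in HCC827 (-0.52 to -0.35). SMAD3 had 5123 and 6568 normalized counts in A549-myr-AKT1 and A549-vector, and 6089 and 4458 in the HCC827 pair. Its log2 fold change was -0.36 in A549 (-0.41 to -0.30) and 0.45 in HCC827 (0.39 to 0.51), the reverse of SMAD2 in both lines. A long noncoding RNA gene on the opposite strand that overlaps a SMAD3 exon, ENSG00000259347, had 42 reads or fewer in every library.

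SMAD4, the common partner of the receptor-activated SMADs, had 2001 normalized counts in A549-myr-AKT1 and 2042 in A549-vector, against 1475 with myr-AKT1 and 1273 with vector in HCC827. Its log2 fold change was -0.03 in A549 (-0.12 to 0.06), which became 0.07 with size factors computed over all 4 libraries, and 0.21 in HCC827 (0.10 to 0.32). SMAD7, the inhibitory SMAD, had 687 and 348 normalized counts in A549-myr-AKT1 and A549-vector, and 216 and 296 in the HCC827 pair. Its log2 fold change was 0.98 in A549 (0.79 to 1.17) and -0.45 in HCC827 (-0.72 to -0.19), the same directions as TGFB2 and TGFBR1.

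TGFB2, TGFBR1, SMAD2 and SMAD7 had the same direction in each line, and for TGFB2 and SMAD7 the 250 bases before their annotated starts are shown to let their promoters be compared. They were taken from RefSeq on GRCh38.p14, at chr1:218345086-218345335 on the plus strand for TGFB2 and chr18:48950966-48951215 on the minus strand for SMAD7. Both windows lie outside the GENCODE exons of their genes, whereas the windows of TGFBR1 and SMAD2 overlap an exon by 76 and 114 bases and are not printed. Capitals mark matches to the motifs searched on both strands.
TGFB2: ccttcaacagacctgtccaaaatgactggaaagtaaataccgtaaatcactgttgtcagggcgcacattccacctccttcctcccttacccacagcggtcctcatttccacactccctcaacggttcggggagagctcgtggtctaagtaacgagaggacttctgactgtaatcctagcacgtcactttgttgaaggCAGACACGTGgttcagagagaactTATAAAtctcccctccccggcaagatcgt
SMAD7: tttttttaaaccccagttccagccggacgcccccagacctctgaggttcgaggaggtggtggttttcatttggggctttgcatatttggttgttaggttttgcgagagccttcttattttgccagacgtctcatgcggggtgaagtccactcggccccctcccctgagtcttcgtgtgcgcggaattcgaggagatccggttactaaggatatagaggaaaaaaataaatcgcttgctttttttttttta
The E-box was searched as CACGTG. The SMAD-binding element was searched as CAGACA and, in its palindromic form, as GTCTAGAC. The TATA box was searched as TATAAA and the GC box as GGGCGG. The TGFB2 window held CACGTG at -49 to -44, CAGACA at -53 to -48, which shares bases with the E-box, and TATAAA at -29 to -24, counted from the start. The SMAD7 and TGFBR1 windows held none of the 5 motifs, and that of SMAD2 held 3 matches to GGGCGG. For each member only the window at the start of its MANE Select transcript was searched. RefSeq listed 3 starts for SMAD7, 8 for TGFBR1 and 2 for SMAD2, so motifs elsewhere near these genes were not covered. Of 35116 human promoter windows of this length, 6.34% held CACGTG, 13.6% CAGACA, 10.7% TATAAA, 42.6% GGGCGG and 0.182% GTCTAGAC. Among the 10 members, CACGTG was found in 2 (TGFB2 and SMAD3), CAGACA in 1, TATAAA in 3 (TGFB2, TGFB3 and INHBA) and GGGCGG in 5. A match describes letters in the window and does not show that a factor binds there.

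The sign of the log2 fold change differed between the lines for 7 of the 9 members with a fold, beside 34.3% of all genes tested in both. This number includes TGFB3 and SMAD4, each with an interval that held 0 in 1 line, and it was 6 with size factors over all 4 libraries. For 5 of them, TGFB2, TGFBR1, SMAD2, SMAD3 and SMAD7, the counting intervals lay on opposite sides of 0 in the lines, as they did for 14.7% of 15704 genes tested in both. More reads make an interval narrower, and shares over all genes were not matched for reads here or below. The same 5 were found under TMM scaling, total reads and size factors over all 4 libraries. TGFB1 was the 1 member whose intervals lay above 0 in both lines, although a second, TGFBR2, joined it with total reads or size factors over all 4 libraries as the scale. Since each line has 1 library per construct, whether the lines differ beyond the spread between cultures was not tested.

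In A549 the intervals of 6 members lay above 0, those of 2 below and that of 1 held it, against 33.3% of all genes above and 36.5% below. The median log2 fold change of the 9 was 0.47, beside -0.03 over all genes tested in A549. The study's threshold of a log2 fold change of 2 was passed by 1 member, TGFB2 (5.79% of all genes), and a value of 1 by TGFB2 and TGFBR1 (15.1% of all genes), with SMAD7 as a 3rd under each of the other scalings. No member lay below -1 (9.87% of all genes) or -2 (2.81%). In HCC827 the intervals of 3 members lay above 0, those of 4 below and those of 2 held it, against 33.5% and 37.1% of 17358 genes. There the median was 0.05, beside -0.04 over all genes, and no member passed 2 (4.63% of all genes) while TGFB1 passed 1 (14.1% of all genes). Again no member lay below -1 (12.5% of all genes) or -2 (3.09%).

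**Figure D1:**
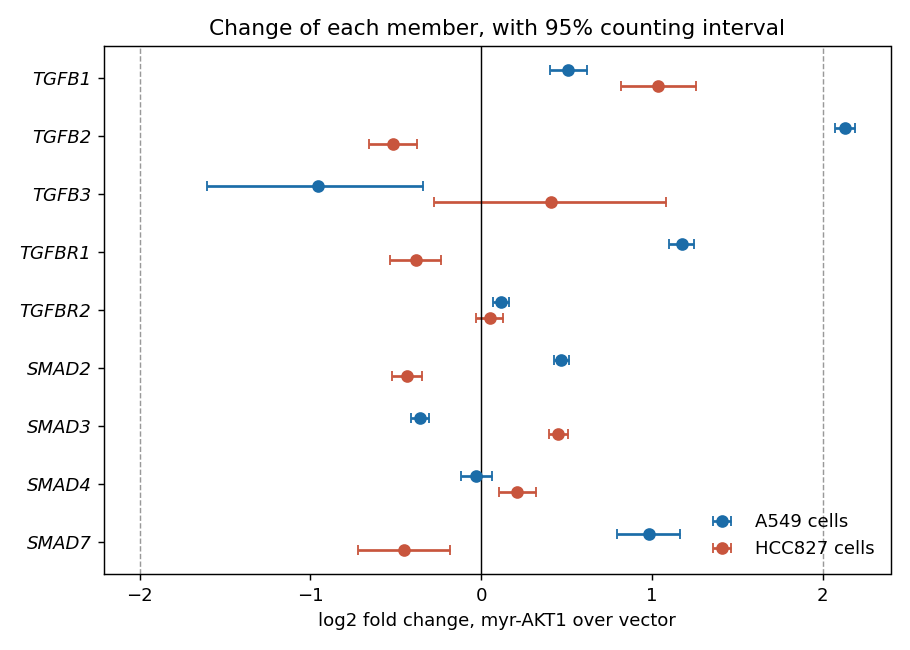
Log2 fold change of myr-AKT1 over vector for the 9 members with enough reads, in A549 (blue) and HCC827 (red), where bars are 95% counting intervals of 1 library against 1 and dashed lines mark 2 and -2. TGFB2, TGFBR1, SMAD2 and SMAD7 lie above 0 in A549 and below 0 in HCC827, SMAD3 lies the other way, and TGFB1 lies above 0 in both.

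The only test the 4 libraries allow treats the lines as replicates. In limma with the cell line as a block, fitted over 19223 genes, 1.44% were higher and 1.88% lower at an adjusted p under 0.05, and 0 of the 9 members tested were among them. TGFB1 came nearest, with a log2 fold change of 0.77 (SE 0.303, limma with Benjamini-Hochberg adjusted p = 0.222), and it was higher in 2 of 2 lines. In limma, in edgeR and in DESeq2, 1 member passed an unadjusted 0.05, TGFB1 each time. At that level limma had 1784 genes higher and 1783 lower, of 19223. The counts were 1808 and 1417 of 19314 genes in edgeR, and 1568 and 1115 of 19314 in DESeq2. TGFB2 had a log2 fold change of 0.81 (SE 0.524, limma adjusted p = 0.475), an average of values of opposite sign. Over the alternatives of the fit, the lowest adjusted p of any member was 0.0803, for TGFB2 in limma with at least 1 read in any library.

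By Euclidean distance, the 3 genes whose values over the 4 libraries lay nearest to those of TGFB2, among 12052 genes averaging at least 50 normalized counts in each line, were PKDCC, CACNA1D and TIMP4. Their distances on the log2 scale, centred by gene, were 0.366, 0.440 and 0.449. On the scale of log2 fold changes, PKDCC stood at 2.11 in A549 and 0.00 in HCC827, CACNA1D at 1.59 and -0.21, and TIMP4 at 1.98 and -1.14.

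Levels were compared between genes as RPKM, the reads of a gene scaled to the length of its merged exons and to the reads of the library. In A549-vector the members ran from TGFBR2 at 32.8, SMAD3 at 22.4, TGFB2 at 15.6 and TGFB1 at 12.2 down to TGFBR1 at 9.16, SMAD2 at 6.67, SMAD4 at 3.56, SMAD7 at 3.02 and TGFB3 at 0.451. In A549-myr-AKT1 TGFB2 led at 69.5, ahead of TGFBR2 at 36.1, TGFBR1 at 21.0, SMAD3 at 17.7 and TGFB1 at 17.6. SMAD3 led in both HCC827 libraries, with 20.5 in HCC827-vector and 29.6 in HCC827-myr-AKT1, and TGFBR2 came next with 17.3 and 18.9.

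Among the ligands of HCC827, TGFB2 (8.12) stood above TGFB1 (3.43) in the vector library, and TGFB1 (7.43) above TGFB2 (6.01) with myr-AKT1. The length of 6050 bases used for TGFB2 includes 1371 shared with TGFB2-OT1 on the same strand, which had 0 reads in every library. Whether reads in these bases were counted for TGFB2 is not given in the sources used here. If they were not, its RPKM is too low, and the order of TGFB1 and TGFB2 with myr-AKT1 may rest on this. INHBA lay at 0.0148 or lower in every library. With the length of the MANE Select transcript, a choice made after seeing the data, SMAD4 in A549-vector stood at 7.95, above SMAD2 at 7.02, so the order of these neighbours rests on the length used. With 1 library per construct no spread between cultures is known, so which neighbours in these orders differ was not tested.

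The vector libraries show the lines without the construct. With size factors over all 4 libraries, TGFB1 was 3.59-fold higher in A549-vector than in HCC827-vector (log2 1.84, 1.66 to 2.03). TGFB2 was 1.95-fold higher (log2 0.96, 0.87 to 1.06), TGFBR2 1.92-fold and SMAD2 1.94-fold. SMAD3 differed by 0.14 on the log2 scale (0.09 to 0.19), and for SMAD7 the interval around -0.18 held 0 (-0.38 to 0.03).

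Other genes of the pathway were taken from lists by role, which were drawn up with earlier results of these data known. Of the 8 other ligands with enough reads in A549, 4 had intervals above 0 (33.3% of all genes) and 4 below (36.5%), and the median was 0.01 on the log2 scale. BMP2, a bone morphogenetic protein, stood at 1.61 and GDF15, a stress-induced ligand of the family, at -1.45. In HCC827 6 of 7 had intervals above 0 (33.5% of all genes), none lay below (37.1%), and the median was 2.50. GDF15 stood at 3.03 and BMP2 at 2.50 there, and INHBE had 83 reads in HCC827-myr-AKT1 against 1 in HCC827-vector (log2 ratio 7.04, 4.52 to 12.36).

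The other receptors had medians of 0.03 in A549, with 4 of 10 intervals above 0 and 5 below, and 0.19 in HCC827, with 5 above and 2 below. TGFBR3, the co-receptor betaglycan, was at -1.16 in A549, and BMPR2, a type II receptor for bone morphogenetic proteins, at 0.76. Among 17 other SMADs and regulators, 9 intervals lay above 0 in each line, with 8 below in A549 and 5 in HCC827. Over all genes the shares were 33.3% above and 36.5% below in A549, and 33.5% and 37.1% in HCC827. BAMBI, a decoy receptor, was higher with myr-AKT1 in both lines, at 1.63 and 1.51. SMURF2, a ubiquitin ligase that acts on TGF-beta receptors and SMADs, was at -1.41 in HCC827.

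Genes of latency and activation, which store or free the ligands above, had a median of 1.20 in A549, where 9 of 10 intervals lay above 0 (33.3% of all genes). LRRC32, which holds latent TGF-beta at the cell surface, had 190 reads in A549-myr-AKT1 and 18 in A549-vector (log2 fold change 3.79, 3.09 to 4.58). ITGB6, a subunit of an activating integrin, was at 2.38 in A549 and -0.33 in HCC827, and the binding protein LTBP2 was at 1.70 and 1.10. In HCC827 7 of 9 intervals lay above 0 (33.5% of all genes), with a median of 0.78, and THBS1, an activator of latent TGF-beta, stood at -2.24. Of the extracellular inhibitors, 4 of 5 intervals lay above 0 in A549 (33.3% of all genes), among them FST (1.79) and GREM1 (2.07), which bind activins and bone morphogenetic proteins. In HCC827 1 of the 7 had enough reads, FSTL3, at 0.34 with an interval that held 0, which lay above 0 with total reads or size factors over all 4 libraries as the scale.

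The median of the pathway's target genes was 1.79 in A549 on the log2 scale, where 28 of 31 intervals lay above 0 (33.3% of all genes) and 2 below (36.5%), and 19 genes passed 1 (15.1%). The interval held 0 for 1 target there, and for 5657 of the 18750 genes, which were not matched to the targets for reads. In HCC827 the median was 0.30, with 14 of 30 intervals above 0 (33.5% of all genes) and 9 below (37.1%). That count was 18 above and 6 below with total reads as the scale, and 17 and 6 with size factors over all 4 libraries. Of the 30 targets tested in both lines, 17 had a log2 fold change above 0 in both (29.3% of all genes) and 1 below in both (36.4%). A further 11 lay above 0 in A549 and below in HCC827 (16.2%), 1 lay the other way (18.1%), and 22 had the higher value in A549 (46.3%). The lists share PMEPA1, SKIL, ITGB6 and LTBP2 and are not independent of each other.

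FN1, which encodes fibronectin, had 275812 normalized counts in A549-myr-AKT1 and 27855 in A549-vector (log2 fold change 3.31), and 23097 and 6679 in the HCC827 pair (1.79). COL1A1, a collagen gene, stood at 3.32 in A549 and 2.01 in HCC827, the insulin-like growth factor binding protein gene IGFBP3 at 2.82 and 1.94, and the cell cycle inhibitor gene CDKN1A at 2.42 and 3.06. HMGA2, which encodes a chromatin protein, was lower with myr-AKT1 in both lines, at -2.22 and -2.06.

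The summed levels of markers of other cell types were also higher with myr-AKT1, though not every marker was. The summed level of 8 fibroblast markers, of which COL1A1 is also a target gene above, was 55.9 CPM, read counts scaled to the library total, in A549-myr-AKT1 and 11.8 in A549-vector, and 9.19 and 2.42 in the HCC827 pair. PDGFRB had 4 and 6 reads in the A549 pair and 1 and 4 in the HCC827 pair. Of these 8, 7 and 6 had more than 3 reads in the A549 pair, and 1 and 3 in the HCC827 pair. COL1A2, which fibroblasts express with COL1A1, had 0 reads in all 4 libraries. The sum of 5 leukocyte markers was 31.0 and 1.37 in the A549 pair and 5.45 and 1.68 in the HCC827 pair, with CD14 at 685 and 40 reads in the former and 68 and 20 in the latter, and CD3E had 0 reads throughout. PTPRC had 7 and 1 reads in the A549 pair and 0 and 5 in the HCC827 pair. Of these 5, 4 and 1 had more than 3 reads in the A549 pair, and 3 in each HCC827 library. The sum of 4 endothelial markers was 4.76 and 0.477 in the A549 pair and 9.86 and 3.77 in the HCC827 pair, where all 4 had more than 3 reads. Epithelial markers summed to 4961 and 5876 in the A549 pair and 4255 and 7195 in the HCC827 pair, and they did not move together. In the A549 pair KRT8 (2216 and 2794) and KRT18 (2269 and 2914) were lower with myr-AKT1. CDH1 (365 and 137), KRT19 (72.3 and 11.3), EPCAM (28.3 and 18.5) and CLDN4 (10.1 and 0.298) were higher there. In the HCC827 pair CDH1 (1102 and 839) and CLDN4 (535 and 364) were higher, and EPCAM, KRT8, KRT18 and KRT19 lower. The part of other cells in the values above was not tested.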

How the data were processed

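RNA from A549 and HCC827 cells with myr-AKT1 or vector was sequenced as 4 libraries, 1 per condition, and groups were taken from the sample labels. The authors mapped reads to hg38 with Bowtie2, which does not splice alignments, and used HTSeq to count them by Ensembl gene. RPKM is the unit named in the Methods, but each deposited signal is a gene's reads over a library size factor, which the authors set within each line. The Methods describe poly(A) selection and the labels ribosomal RNA removal. The Methods also describe strand-specific sequencing, but the strand setting of the counting and the annotation release are not given in the sources used here. Reads were recovered from the step between values and were whole, within 0.001, for every expressed gene of both myr-AKT1 libraries and for 26983 of 26984 and 25879 of 25880 in the A549 and HCC827 vector libraries.

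Genes were matched to GENCODE release 44 (60261 of 60558). Folds were computed without a pseudocount for genes averaging at least 10 normalized counts over the pair, with 95% Clopper-Pearson intervals. These cover counting error alone and take reads as independent, so PCR copies would make them too narrow. In list counts a library with 3 reads or fewer counted as 3. The edgeR test was planned for counts. As the deposited values were already scaled, limma on log2(value + 1) with a mean-variance trend and Benjamini-Hochberg adjustment was used, with 1 residual degree of freedom, and edgeR and DESeq2 were run on the recovered reads as alternatives. The scripts were tested on simulated data.

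The members and lists were chosen with earlier results of these data known. All 10 members are named, and from each list up to 4 genes with the largest and 2 with the smallest log2 fold change in a line, with a mean of at least 50. The text gives a part of these, and 1 target gene is counted in its list but not reported here. Alternatives were other scalings, filters, pseudocounts and thresholds, the other tools and no block. The R 4.3.3 packages were edgeR 4.0.16, limma 3.58.1 and DESeq2 1.42.0, and Python 3.11.15 was used with scipy 1.17.1, pandas 2.3.3, numpy 2.4.6 and matplotlib 3.10.9.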

Additional observations from a re-analysis of the deposited data

Results flagged for a closer look

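For 5 of the 9 members with a fold and 17 of 68 list genes tested in both lines, the log2 fold change of myr-AKT1 over vector had opposite signs in A549 and HCC827, and neither counting interval held 0. Whether the lines differ was not tested, since each value compares 1 library with 1, and 14.7% of 15704 genes showed the same. The members were TGFB2 (2.13 in A549 and -0.51 in HCC827), TGFBR1 (1.17 and -0.38), SMAD2 (0.47 and -0.43), SMAD7 (0.98 and -0.45) and SMAD3 (-0.36 and 0.45). Among the ligands of the lists they were GDF15 (-1.45 in A549 and 3.03 in HCC827), INHBB (-0.84 and 0.996) and GDF11 (-0.51 and 0.69). Among the receptors they were ACVR2B (-0.31 in A549 and 0.69 in HCC827), BMPR1B (-0.13 and 0.49) and BMPR2 (0.76 and -0.21). The ubiquitin ligase gene NEDD4L stood at -0.86 in A549 and 0.63 in HCC827, the integrin gene ITGB6 at 2.38 and -0.33, and the target gene ANGPTL4 at 2.05 and -0.50. The other 8 list genes fall outside the naming rule and were named after their values were seen. Of these, 6 are target genes: TGFBI (2.19 in A549 and -0.31 in HCC827), PTHLH (1.79 and -0.26), TPM1 (0.75 and -0.33), ID1 (0.46 and -0.11), COL4A1 (0.26 and -0.24) and KLF10 (0.16 and -0.16). The remaining regulators were SMAD5 (0.10 in A549 and -0.20 in HCC827) and TGIF2 (-0.51 and 0.21).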

How the results depend on the processing

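Within the lines, the count of members past a log2 fold change of 2 or -2 was 1 in A549 and 0 in HCC827 under every filter, pseudocount and scaling tried. At 1 or -1 it was 2 in A549 and 1 in HCC827. Of 72 values of single members under another pseudocount or scaling, 64 stayed within their counting interval and 8 moved outside it, 6 of them with size factors over all 4 libraries, which shifted the median of all genes in A549 by 0.10. No member whose interval excluded 0 changed direction. The fit over both lines called 639 genes in limma, 424 with edgeR, 1139 with DESeq2 (5243 genes without an adjusted p), 0 with a pseudocount of 0.1 (1563 higher and 1631 lower at an unadjusted p under 0.05), 1995 with at least 1 read in any library, 205 with size factors over all 4 libraries and 0 without the cell line block (202 and 430 at an unadjusted p under 0.05). None of these settings called a member. The cause of these shifts was not tested. The labels give no replicate numbers, and the fit with the cell line as a block pairs myr-AKT1 with vector within each line. Leaving out a library would leave the fit no residual degree of freedom. TGFB3, INHBA and TGFB2-AS1 are limited by depth.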
